A study of Mus musculus with 217 samples.

Results

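The 10 genes described here are components of Wnt/β-catenin signaling in brain vessels: the receptors *Fzd4*, *Fzd6* and *Lrp5*, the Wnt7 co-activators *Adgra2* and *Reck*, the nuclear factors *Lef1* and *Tcf7*, and the pathway targets and feedback inhibitors *Axin2*, *Apcdd1* and *Nkd1*. They were chosen by name for their role in the pathway, and are 10 of the 52550 genes counted. The study isolated ribosome-bound mRNA of endothelial cells (ECs) from brain, lung and heart of adult RiboTagEC mice and sequenced it before and after the bacterial endotoxin lipopolysaccharide (LPS). All mice carried Cdh5CreERT2/+; Rpl22HA/+ on C57BL/6J: tamoxifen (4 gavages of 5 mg, given on alternate days from 4 to 6 weeks of age) activates the Cre driven by the *Cdh5* (VE-cadherin) promoter, which puts an HA tag on the ribosomal protein Rpl22. Controls at 0 hr had no LPS, and the paper's methods name mice injected with PBS as the controls. The other mice were taken 6, 24, 48, 72 or 168 hr after 10 mg/kg LPS given intraperitoneally. After libraries with under 3% of reads on genes were left out, 80 of 98 libraries remained: at 0, 6, 24, 48, 72 and 168 hr, brain and heart each had 5, 5, 4, 6, 4 and 4, and lung had 4, 4, 2, 6, 4 and 4. The labels number the replicates without saying that each was a separate mouse, and libraries of different tissues may share a mouse, so p-values measure the spread between these libraries.

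In Wnt/β-catenin signaling, a Wnt ligand or Norrin binds a Frizzled receptor and an Lrp5 or Lrp6 co-receptor, which stops the destruction of β-catenin, and β-catenin then enters the nucleus and works with factors of the Lef/Tcf family to switch on target genes. ECs of the central nervous system receive Wnt7a and Wnt7b from neural cells through a Frizzled complex that also holds Adgra2 (Gpr124) and Reck, and this signal drives brain vessel growth and the blood-brain barrier. Targets such as *Axin2*, *Apcdd1* and *Nkd1* encode inhibitors of the same pathway, so their mRNA is a common readout of it.

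Counts on genes were 7226796 to 32891759 per library in brain, 8136031 to 33050750 in heart and 284457 to 43417945 in lung, where the share of reads on genes fell as low as 3.40%. Pan-endothelial genes, a list of 20 such as *Pecam1* and *Cdh5*, summed to 3101 to 5947 CPM (read counts scaled to library size) in brain at 0 hr, against 12780 to 24810 in lung and 16330 to 19240 in heart. Markers of other cells were present: at 0 hr neuron markers summed to 1548 to 6335 CPM in brain, 112 to 399.5 in lung and 74.3 to 129.8 in heart, pericyte and smooth muscle markers to 1282 to 3468 CPM in brain, alveolar epithelium markers to 2232 to 10520 in lung and cardiomyocyte markers to 4198 to 8650 in heart. *Mog* and *Opalin* of oligodendrocytes were at 0 in lung and heart, and the other oligodendrocyte markers brought the sums to 44.1 to 122.1 CPM there against 1262 to 6140 in brain. In such pooled tissue a lower level can come from fewer cells of a type or from less RNA per cell, and these cannot be told apart.

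*Fzd6* is listed at 0 in all 98 libraries and has no level here. The adjoining protein-coding genes *Baalc*, *Cthrc1* and *Slc25a32* on chromosome 15 are listed at 0 as well, while *Atp6v1c1* and *Dcaf13* on either side hold 162478 and 99681 counts, and 2765 of 21819 protein-coding genes are at 0 throughout. The other 9 members passed the low-count filter in brain and lung, and 8 did in heart, where *Lef1* did not.

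On the mouse genome (GRCm38), *Lef1* lies at chr3:131110471-131224356, *Tcf7* at chr11:52252371-52283014 on the minus strand, *Axin2* at chr11:108920349-108950783, *Nkd1* at chr8:88521354-88594884, *Fzd4* at chr7:89404355-89413134, *Fzd6* at chr15:39006034-39038188, *Lrp5* at chr19:3584828-3686564 on the minus strand, *Adgra2* at chr8:27085583-27123436 and *Reck* at chr4:43875530-43944806. Exons of *Lef1* overlap an opposite-strand gene, *Gm43352*, over 1208 of 8788 bases, and *Axin2* and *Adgra2* share 209 and 73 bases with *Gm11670* and *Brf2*. Reads of such pairs cannot be assigned to 1 strand where counting did not use strand, which the sources used here do not state.

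Since Lef1 and Tcf7 bind DNA with a preference for the letters CTTTGA or CTTTGT, the RefSeq promoter windows of the members (250 bases before to 50 after a transcript start, GRCm38.p6) were searched for these letters and for their reverse complements TCAAAG and ACAAAG. Such windows were found for 6 of the 10 members, 10 windows in all, and 2 held a match. Of all 32851 RefSeq windows, 31.2% held at least 1 of the 4 strings. The 2 windows with a match are shown by their 250 bases before the start, both on the plus strand, with the matched letters in capitals: an internal start of *Lef1* (chr3:131156044-131156293) and the start of *Reck* (chr4:43875280-43875529).
Lef1: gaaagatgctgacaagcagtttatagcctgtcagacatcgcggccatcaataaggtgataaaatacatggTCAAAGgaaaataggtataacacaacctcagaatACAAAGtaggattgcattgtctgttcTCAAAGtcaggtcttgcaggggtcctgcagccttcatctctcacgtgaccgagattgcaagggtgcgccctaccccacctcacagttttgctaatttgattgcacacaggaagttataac
Reck: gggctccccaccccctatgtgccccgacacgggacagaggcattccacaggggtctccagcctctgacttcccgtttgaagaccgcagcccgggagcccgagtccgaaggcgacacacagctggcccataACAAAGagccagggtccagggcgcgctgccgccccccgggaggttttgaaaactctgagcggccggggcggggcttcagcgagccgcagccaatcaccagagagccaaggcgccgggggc
The *Lef1* window holds TCAAAG at 2 places and ACAAAG at 1, and the *Reck* window holds ACAAAG once. No match was found in the windows of *Tcf7*, *Axin2*, *Nkd1* or *Fzd4*, which says only that these letters are not in those windows. No window was matched for *Apcdd1*, *Fzd6*, *Lrp5* or *Adgra2*.

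The first question was where the pathway's components are translated at baseline. At 0 hr, 7 of the 9 members measured were higher in brain than in the mean of lung and heart, led by *Lef1*, *Apcdd1* and *Tcf7*, and the receptor genes *Fzd4* and *Lrp5* were lower (edgeR quasi-likelihood test, Benjamini-Hochberg adjusted over 17730 genes). Among all genes tested in this comparison 58.5% were called, 35.1% higher and 23.4% lower. The median log2 difference of the 9 members was 1.83, beside 0.22 for all genes.

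*Lef1*, a β-catenin partner, stood at 122, 183, 51.9, 72.5 and 54.9 CPM in the 5 brain libraries at 0 hr. In lung it was at 3.77, 0.527, 3.21 and 1.80 CPM, and in heart at 0.0876, 0, 0, 0.0649 and 0.135 CPM, which is 7 counts over 5 libraries. Every brain library was above every lung and heart library, and *Lef1* was called higher than their mean (adjusted p = 1.35e-09). Its fitted difference of 7.71 ± 0.46 on the log2 scale (± SE) depends on the few heart counts and is no exact fold. Against lung alone it was 5.24 ± 0.54 (adjusted p = 1.07e-06). *Tcf7*, the other nuclear factor measured, was at 58.8, 105, 38.6, 63.4 and 46.7 CPM in brain and 0.876 to 2.70 in heart. Lung held 6.09, 4.94 and 6.90 CPM in 3 libraries and 53.9 in replicate 4, which lies within the brain range. Over the mean of the other tissues *Tcf7* was 3.57 ± 0.43 higher on the log2 scale (adjusted p = 4.25e-06).

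Among the targets, *Apcdd1*, a membrane-bound Wnt inhibitor encoded at chr18:62922231-62961179, was at 209, 298, 76.4, 106 and 89.1 CPM in brain, at 1.74, 0, 1.10 and 4.69 in lung and at 2.02, 3.80, 5.58 and 4.55 in 4 heart libraries, with 24 counts in heart replicate 2. Its brain libraries lay far above all others, with a log2 difference of 5.73 ± 0.54 (adjusted p = 2.49e-07). *Axin2*, a scaffold of the complex that destroys β-catenin, was at 25.4 to 50.7 CPM in brain, 14.2 to 41.6 in lung and 1.84 to 2.79 in heart. It was 1.94 ± 0.24 higher in brain than in the mean of the others (adjusted p = 5.80e-06), while brain and lung overlapped and differed by 0.25 ± 0.30 (adjusted p = 0.469, 95% interval -0.33 to 0.84).

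*Nkd1*, which binds Dishevelled and dampens the signal, had another order of tissues. It was at 104, 182, 82.0, 101 and 63.9 CPM in brain, at 328, 341, 567 and 472 in lung and at 4.99, 11.8, 5.45, 8.80 and 7.22 in heart. The 3 tissues did not overlap, with lung highest and heart lowest. *Nkd1* was 3.71 ± 0.33 higher in brain than in heart (adjusted p = 1.96e-07) and 2.10 ± 0.32 lower than in lung (log2 difference -2.10, adjusted p = 4.85e-05), a direction that turned to a log2 difference of 0.098, with adjusted p = 0.770, when libraries were scaled on the 20 pan-endothelial genes. Against the mean of both it was 0.81 ± 0.26 higher (adjusted p = 0.0147).

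*Adgra2*, which works with Reck in the Wnt7 receptor complex, was at 173, 206, 113, 164 and 103 CPM in brain, at 24.9, 28.3, 38.9 and 99.8 in lung and at 64.7, 64.7, 96.7, 110 and 69.1 in heart. It was 1.22 ± 0.29 higher in brain than in the mean of the others (adjusted p = 0.00177), and brain and heart overlapped (0.79 ± 0.34, adjusted p = 0.0578). With a block for the mouse, whose number was read from the deposited names, with DESeq2 and with limma-voom *Adgra2* was called between brain and heart. The main fit called 54.8% of all genes in this comparison, and the share in these other settings is not given here. *Reck*, a membrane-anchored protein needed for the same signal, was at 37.8 to 73.3 CPM in brain, 4.08 to 11.7 in lung and 14.6 to 23.2 in heart, with no overlap between brain and either tissue and a log2 difference of 1.83 ± 0.24 (adjusted p = 1.025e-05).

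*Fzd4*, the receptor for Norrin and several Wnts, was at 161, 114, 66.3, 71.8 and 62.2 CPM in brain, at 82.9, 170, 206 and 572 in lung and at 585, 359, 519, 504 and 356 in heart. All brain libraries were below all heart libraries and overlapped with lung. Its log2 difference from the mean of lung and heart was -1.95 ± 0.37 (adjusted p = 0.000295), and turned to 0.33 under pan-endothelial scaling (adjusted p = 0.273). *Lrp5*, the co-receptor, was at 38.3, 48.7, 31.0, 40.8 and 29.3 CPM in brain, at 109, 220, 333 and 174 in lung and at 140, 143, 168, 199 and 101 in heart, with every brain library below the rest. Its difference was -2.28 ± 0.28 (adjusted p = 4.59e-06), and -0.11 with adjusted p = 0.659 under pan-endothelial scaling.

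That scaling sets the libraries level on the 20 pan-endothelial genes, of which 18 were lower in brain than in the mean of lung and heart at 0 hr (median -1.90). It moved the median of all genes from 0.22 to 2.445, so values under it are read relative to that shift. Under it, *Lef1*, *Tcf7*, *Axin2*, *Apcdd1*, *Nkd1*, *Adgra2* and *Reck* were called higher in brain and neither *Fzd4* nor *Lrp5* was called, where 89.4% of all genes were called, so the members' share lies below that of all genes. Neuron, astrocyte and oligodendrocyte markers were also higher in the brain libraries, and their part in the members' differences was not tested. Within each of the 2 library series that held 0 hr samples, the log2 differences of all 9 members between brain and lung and between brain and heart had the sign of the pooled value.

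**Figure D1:**
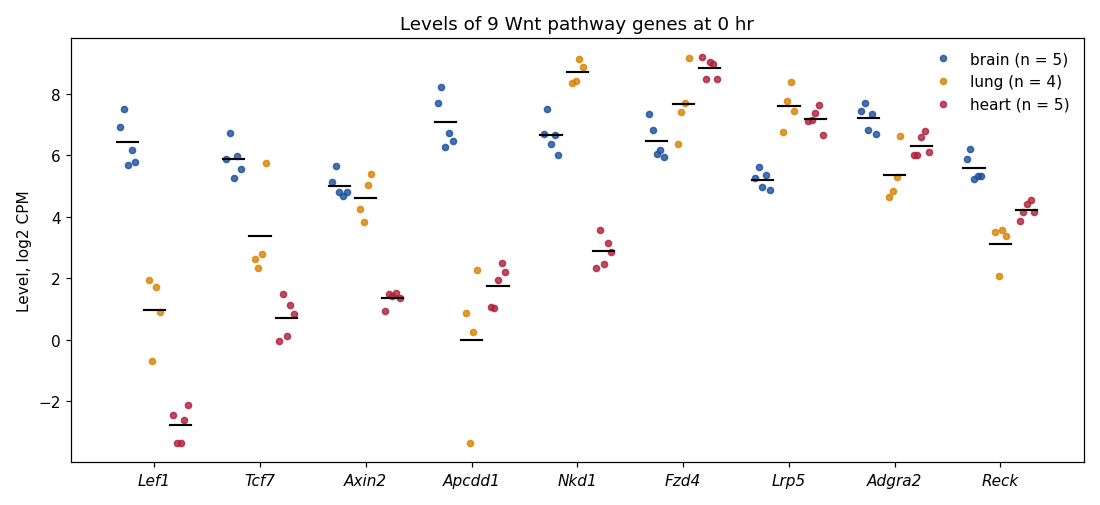
Level of each member at 0 hr in log2 CPM (y axis), with 1 point per library for brain (n = 5), lung (n = 4) and heart (n = 5) and a bar at each group mean. *Lef1* and *Apcdd1* of brain stand far above the other tissues, *Nkd1* is highest in lung, and *Fzd4* and *Lrp5* are lowest in brain, an order that holds for scaling on all genes and not for scaling on pan-endothelial genes.

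In pairs of tissues, brain against lung had 5 members called higher (*Apcdd1* 6.46, *Lef1* 5.24, *Reck* 2.36, *Tcf7* 2.10 and *Adgra2* 1.65 on the log2 scale) and 3 lower (*Lrp5* -2.53, *Nkd1* -2.10 and *Fzd4* -1.45), where 37.9% of all genes were called higher and 26.4% lower (64.3% in all); under pan-endothelial scaling *Fzd4* turned to 0.93 and *Nkd1* to 0.098. Brain against heart had 6 higher (*Lef1*, *Tcf7* 5.05, *Apcdd1* 5.00, *Nkd1* 3.71, *Axin2* 3.63 and *Reck* 1.29) and 2 lower (*Fzd4* -2.45 and *Lrp5* -2.03, the latter turning to 0.077 under pan-endothelial scaling), beside 32% of all genes called higher and 22.8% lower (54.8%). Lung against heart had 4 higher (*Nkd1* 5.81, *Axin2* 3.38, *Tcf7* 2.95 and *Lef1*) and 2 lower (*Reck* -1.08 and *Fzd4* -0.995), beside 29.9% higher and 31.2% lower (61.1%). No size is given for *Lef1* against heart, where its 5 libraries lay at or near the level of 3 counts (0.0974 to 0.263 CPM) and it entered the test through the other tissues. T cell markers moved the same way between lung and heart, with 8 of 9 called higher in lung and sums of 24.4 to 68.7 against 8.82 to 15.3 CPM; the part of T cells, which use *Lef1* and *Tcf7* too, was not tested.

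Levels of different genes can be compared per kilobase of exon. On that scale the brain means at 0 hr were, in CPM per kilobase ± SD over 5 libraries, 26.3 ± 7.48 for *Adgra2*, 23.8 ± 9.80 for *Tcf7*, 23.4 ± 9.95 for *Nkd1*, 14.2 ± 6.32 for *Fzd4*, 12.1 ± 7.38 for *Apcdd1*, 11.0 ± 6.34 for *Lef1*, 10.45 ± 3.25 for *Reck*, 6.055 ± 1.88 for *Axin2* and 3.86 ± 0.809 for *Lrp5*. Neighbours in this order overlapped within 1 SD throughout. In heart the receptor *Fzd4* led with 69.1 ± 15.2 CPM per kilobase and *Lef1* was last at 0.00654 ± 0.00663, and in lung *Nkd1* led with 93.7 ± 25.0.

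Other genes of the pathway were counted from fixed lists. Of 19 ligands tested (of 24 listed: Wnts, Norrin and R-spondins), 15 were higher and 2 lower in brain than in the mean of lung and heart at 0 hr, among them *Wnt5a* (4.72 on the log2 scale), *Wnt5b* (4.36) and *Wnt4* (4.18), with a list median of 4.18. Of 16 other receptors and co-receptors 11 were higher and 2 lower, led by *Fzd2* (3.86), *Fzd7* (3.29) and *Fzd1* (3.10). Genes acting inside the cell were split, with 4 higher and 5 lower of 18 (*Amer1* -2.33, *Pygo1* 2.03 and *Pygo2* -1.72) and a median of 0.11. Inhibitors had 11 higher and 3 lower of 21, led by *Notum* (6.22), a secreted enzyme that inactivates Wnts, *Frzb* (5.52) and *Dkk3* (4.13). Barrier genes that depend on Wnt signals had 8 higher and 2 lower of 12 and a median of 5.10, with *Mfsd2a* (7.98), a lipid transporter of brain ECs, *Slc2a1* (6.98), their glucose transporter, and the transcription factor *Foxf2* (6.57). The barrier list also holds *Plvap*, a gene of fenestrated ECs rather than of the barrier, so its counts and medians mix both kinds. The lists were fitted with scaling on all genes only, so the lower calls among them, *Amer1* and *Pygo2* included, were not recomputed under the pan-endothelial scaling that moved *Fzd4* and *Lrp5*. For these lists too, the part of the neural and mural cell markers in the brain libraries was not tested. A mean of at least 1 CPM at 0 hr was reached by 18 of the 24 ligands in brain, 11 in lung and 8 in heart. Of the 12 barrier genes it was reached by 12, 10 and 6. A gene could pass the low-count filter through brain alone, so the higher calls and medians of these lists can partly follow from the filter.

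The second question was how the pathway's genes responded to LPS. Before the tests, 4 libraries had to be set apart, which was done after their values were seen. *Cxcl1*, a chemokine gene that LPS induces, was at 0.539 to 2.25 CPM in brain at 0 hr and at 242.6 to 2791 in 4 brain libraries at 6 hr, but at 1.31 in the library labelled 6 hr, replicate 6. Heart replicate 5 at 6 hr held 4.02 CPM, beside 1208 to 4224 in the other 4, and heart replicate 1 at 72 hr held 4.54, beside 49.7 to 138.4 in the other 3. *Selp*, the adhesion molecule P-selectin, and *Lcn2*, an acute-phase gene, were far below the rest of their group in the same 3 libraries. *Lcn2* was still above the 0 hr range in brain replicate 6 (289 CPM against 5.41 to 37.15) and heart replicate 5 (46.7 against 7.515 to 19.7). *Selp* was above it in both heart libraries (6.50 and 6.94 CPM against 2.98 to 4.35). Over all genes the 3 libraries were closer to the 0 hr libraries of their tissue than to their own group. Pearson's r was 0.952 to 0.985 against 0.921 to 0.959 for the brain library and 0.983 to 0.988 against 0.912 to 0.945 for heart replicate 5. The fourth library, lung replicate 4 at 6 hr, was the shallowest kept, with 284457 counts and r of 0.409 to 0.449 with its group. It was low for *Lcn2* (144.5 CPM against 728 to 2500 in its group) but not for *Cxcl1* (115.6 against 29.1 to 382.3). By the deposited names, this library, brain replicate 6 and heart replicate 5 come from the same mouse. Heart replicate 1 at 72 hr comes from another, whose brain and lung libraries held *Lcn2* at 906.4 and 287.4 CPM. The labels of the 3 libraries with *Cxcl1* near the 0 hr level may be wrong, which cannot be settled here, and every value computed with them takes the label as given. Results are given with the 4 libraries and without them.

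**Figure D2:**
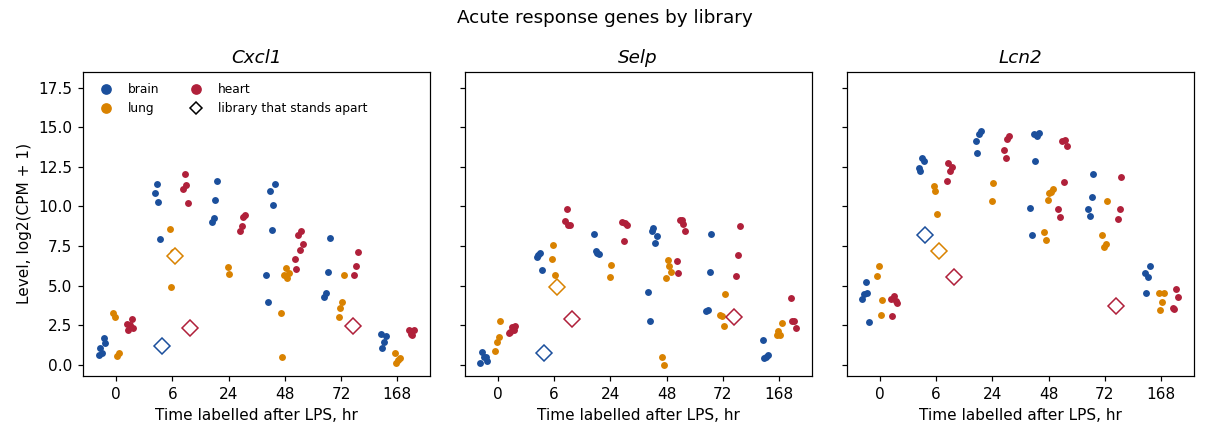
Levels of *Cxcl1*, *Selp* and *Lcn2* in log2(CPM + 1) on the y axis against the labelled time after LPS in hr, with 1 point per library and open diamonds for the 4 libraries that stand apart. The brain and heart diamonds at 6 hr and the heart diamond at 72 hr lie near the 0 hr points for *Cxcl1* and *Selp*. For *Lcn2* the brain and heart diamonds at 6 hr lie above the 0 hr points, at 289 and 46.7 CPM.

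In brain ECs at 6 hr, *Tcf7*, *Nkd1*, *Adgra2*, *Lrp5* and *Axin2* fell, and none of the 9 members was called higher (edgeR quasi-likelihood test over 19234 genes, of which 4.21% were called higher and 2.23% lower, 6.44% in all). The median log2 change was -1.06, beside 0.00 for all genes. With replicate 6 left out, *Reck* was called lower as well, *Fzd4* was called higher, and 14.3% of all genes were called. Without a term for library series, *Nkd1* alone kept its call (-1.61, adjusted p = 0.0240), beside 2.42% of all genes, and the changes were -1.68 for *Tcf7*, -1.41 for *Adgra2*, -1.03 for *Lrp5* and -1.03 for *Axin2* (adjusted p = 0.0835, 0.101, 0.250 and 0.129).

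*Tcf7* was at 7.08, 8.87, 6.01 and 10.8 CPM in replicates 1 to 4 at 6 hr and at 67.0 in the library labelled 6 hr, replicate 6, against 38.6 to 105 at 0 hr. The first 4 lie below every control and replicate 6 lies among the controls. The change was -1.85 ± 0.35 on the log2 scale (adjusted p = 0.00168), and -2.70 ± 0.25 without replicate 6, a 6.48-fold fall (adjusted p = 3.785e-08). *Lef1*, the other nuclear factor, was at 42.4, 52.3, 46.8 and 53.6 CPM, and 102 in replicate 6, against 51.9 to 183. These ranges overlap, and its change of -0.48 ± 0.20 was not called (adjusted p = 0.179, and 0.147 without replicate 6).

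Of the feedback inhibitors, *Nkd1* was at 17.1, 15.4, 18.6 and 35.1 CPM in replicates 1 to 4 and 94.6 in replicate 6, against 63.9 to 182 at 0 hr. Its change was -1.59 ± 0.29 (adjusted p = 0.00116), and -2.14 ± 0.26 without replicate 6 (adjusted p = 1.575e-06). *Axin2* was at 9.80, 13.5, 9.41 and 12.2 CPM, and 39.9 in replicate 6, against 25.4 to 50.7, a change of -0.98 ± 0.23 (adjusted p = 0.00954) or -1.39 ± 0.21 without that library (adjusted p = 2.46e-05). For both genes replicates 1 to 4 lay below all controls. *Apcdd1* was at 26.9, 52.8, 51.0 and 97.4 CPM, and 204.5 in replicate 6, overlapping 76.4 to 298 at 0 hr, and its change of -0.64 ± 0.28 was not called (adjusted p = 0.209, and 0.0985 without replicate 6).

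Of the Wnt7 co-activators *Adgra2* fell in both fits and *Reck* in 1 of them. *Adgra2* was at 26.8, 31.4, 23.8 and 50.2 CPM in replicates 1 to 4 and 162 in replicate 6, against 103 to 206 at 0 hr, a change of -1.46 ± 0.29 (adjusted p = 0.00233) or -1.94 ± 0.26 without replicate 6 (adjusted p = 6.91e-06). *Reck* was at 7.24, 17.2, 7.52 and 14.7 CPM, and 86.2 in replicate 6, above all 5 controls at 37.8 to 73.3. Its change of -1.06 ± 0.41 was not called with that library (adjusted p = 0.137) and was -1.90 ± 0.36 without it (adjusted p = 0.000455).

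Of the receptor genes *Lrp5* fell, and *Fzd4* was called higher when replicate 6 was left out. *Lrp5* was at 8.62, 13.4, 8.77 and 15.9 CPM in replicates 1 to 4, below all controls at 29.3 to 48.7, and 48.0 in replicate 6, a change of -1.06 ± 0.27 (adjusted p = 0.0151) or -1.46 ± 0.26 without replicate 6 (adjusted p = 0.000198). *Fzd4* was at 132, 167, 155 and 127 CPM, and 131 in replicate 6, against 62.2 to 161 at 0 hr. Its libraries overlap the controls, and the change was 0.89 ± 0.35 with replicate 6 (adjusted p = 0.146) and 1.14 ± 0.35 without it (adjusted p = 0.0284).

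All of replicates 1 to 4 came from library series 2, where the differences from the 3 controls of that series were -2.59 for *Tcf7*, -1.99 for *Nkd1*, -1.97 for *Adgra2*, -1.85 for *Reck*, -1.56 for *Lrp5*, -1.27 for *Axin2*, -0.80 for *Apcdd1*, -0.28 for *Lef1* and 1.115 for *Fzd4* (log2 CPM). In series 1 the only 6 hr library was replicate 6. Pan-endothelial genes fell too, with 9 of 20 called lower and 2 higher (median -0.67) and sums of 2129 to 3926 CPM against 3101 to 5947. Scaled on them, which moved the median of all genes to 0.47 and the share called to 20.3%, *Tcf7* (-1.37), *Nkd1* (-1.10) and *Adgra2* (-0.99) were called lower and *Fzd4* (1.33) higher. Neuron markers had 0 of 10 called and summed to 2632 to 8322 CPM at 6 hr. From 0 to 6 hr median sums went from 4517 to 6918 CPM for neuron, 2616 to 3390 for astrocyte and 4314 to 5626 for oligodendrocyte markers. They went from 2001 to 1236 CPM for mural and from 1133 to 714.2 for fibroblast markers. The part of these cells in the members' changes was not tested.

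**Figure D3:**
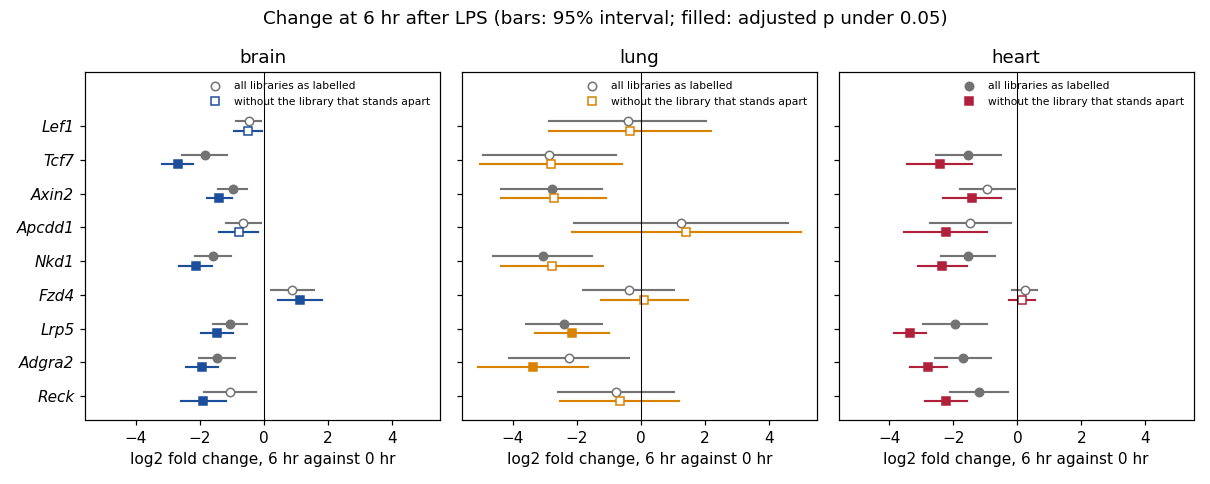
Log2 fold change at 6 hr against 0 hr (x axis) of each member in brain, lung and heart, with 95% intervals, for all libraries and without those that stand apart; *Lef1* was not tested in heart. In brain and heart *Tcf7*, *Nkd1*, *Adgra2*, *Lrp5* and *Axin2* lie below 0 in both fits, and the intervals in lung are the widest.

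Later in brain, *Lef1* was called lower at 24 and 48 hr, *Axin2* at 24 hr and *Nkd1* at 48 hr, and no member at 72 or 168 hr. At 24 hr, *Lef1* was at 62.0, 30.8, 62.9 and 73.0 CPM and was called lower (-0.84 ± 0.23, adjusted p = 0.0213), as was *Axin2* at 24.2, 21.5, 16.7 and 15.0 CPM, all below the controls (-0.80 ± 0.26, adjusted p = 0.0484), where 6.52% of all genes were called higher and 4.66% lower (11.2%). *Reck*, at 28.5, 12.3, 17.6 and 13.9 CPM, also lay below every control, with adjusted p = 0.0537. Without the 6 hr replicate 6, 5 members were called lower at 24 hr, *Lef1* (-0.84), *Tcf7* (-0.79), *Axin2* (-0.78), *Nkd1* (-0.79) and *Reck* (-1.34), beside 13.4% of all genes.

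At 48 hr *Lef1*, with a lowest, median and highest level of 40.8, 51.3 and 65.2 CPM over 6 libraries, was called lower (-0.86 ± 0.19, adjusted p = 0.00544), and so was *Nkd1* at 35.9, 55.9 and 72.5 CPM (-1.05 ± 0.29, adjusted p = 0.0177), beside 8.11% of all genes called higher and 6.12% lower (14.2%). Leaving out the 6 hr replicate 6 added *Reck* (-0.94 ± 0.30, adjusted p = 0.0372), beside 15.9%. *Fzd4* ran from 42.6 to 362 CPM among these libraries, the widest range of the 9 members at that time by ratio. At 48 hr 6 of 7 myeloid markers tested were called higher in brain, summing to 74.1 to 370.0 CPM against 17.5 to 97.7 at 0 hr, and T cell markers summed to 17.8 to 54.3 CPM, against 31.5 to 80.3. Markers of other cells differed at both times: with medians at 0, 24 and 48 hr, neuron markers summed to 4517, 1339 and 1236 CPM, oligodendrocyte markers to 4314, 925.3 and 751.2, mural markers to 2001, 1081 and 1004, fibroblast markers to 1133, 4176 and 2414 and pan-endothelial genes to 3924, 4073 and 5016. Their part in the changes at 24 and 48 hr was not tested. Without the term for library series 0 members were called at 24 and at 48 hr, beside 15.3% and 12.6% of all genes, with changes of -0.76 and -0.85 for *Lef1*, -0.78 for *Axin2* at 24 hr and -0.90 for *Nkd1* at 48 hr (adjusted p = 0.165, 0.0938, 0.129 and 0.102).

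At 72 hr 0 of 9 members were called by edgeR (1 at unadjusted p under 0.05, 1 by DESeq2 and 0 by limma-voom), where 2.98% of all genes were called higher and 0.546% lower (3.53%), and *Apcdd1* had the largest rise, to 145 to 557 CPM (0.87 ± 0.29, adjusted p = 0.108). By 168 hr 0 members were called (1 at unadjusted p under 0.05, 0 by DESeq2 and by limma-voom), as were 0 of all genes. At that time *Lef1* stood at 154, 132, 115 and 152 CPM, *Tcf7* at 86.6, 69.2, 112 and 103, and *Nkd1* at 105, 127, 145 and 156. These overlap the 0 hr ranges, as did the other 6 members. *Apcdd1*, at 360, 341, 211 and 311 CPM, had 3 of 4 libraries above every control at 168 hr and the largest change (0.71 ± 0.33, adjusted p = 0.903), and *Fzd4*, at 85.9, 194.5, 162 and 182 CPM, had 3 as well (0.11 ± 0.40, adjusted p = 0.971). *Lrp5*, *Adgra2* and *Reck* had 2 libraries each above every control, *Axin2* and *Tcf7* 1, and *Lef1* and *Nkd1* 0.

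**Figure D4:**
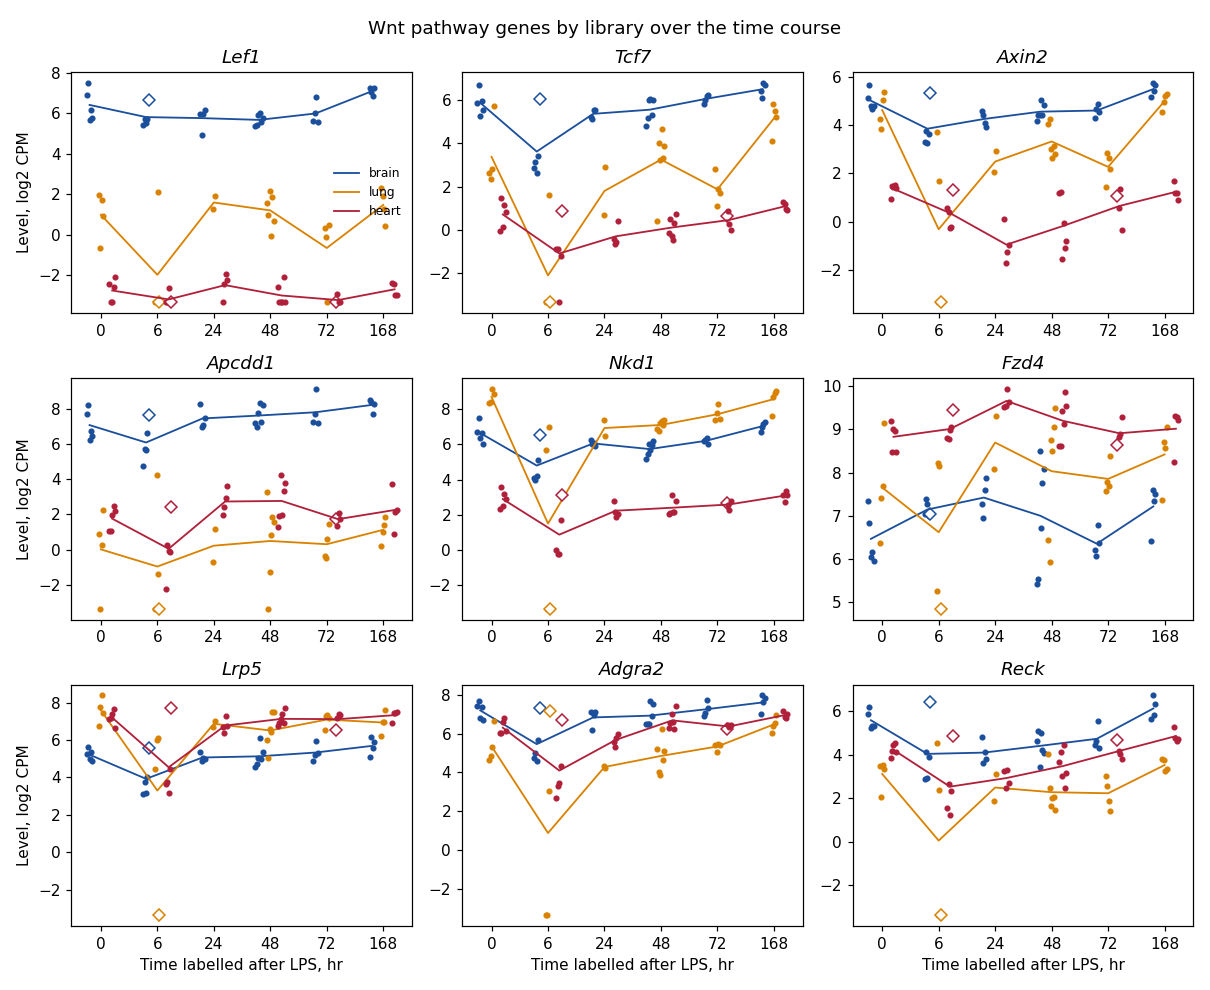
Level of each member in log2 CPM (y axis) against the labelled time after LPS in hr (x axis, evenly spaced categories), with 1 point per library, lines through the group means of brain, lung and heart, and open diamonds for the 4 libraries that stand apart, which the means include. In brain, *Tcf7*, *Nkd1*, *Adgra2*, *Lrp5* and *Axin2* dip at 6 hr and return, while the *Lef1* line stays low through 48 hr.

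The other pathway lists in brain at 6 hr held few calls. Of the 19 ligands 0 were called (4 lower without replicate 6), of 16 receptors *Tspan12* was lower (-0.77), a Norrin receptor partner of Fzd4, of 18 genes inside the cell *Tcf7l1* was lower (-0.84), and of 20 inhibitors *Notum* (-2.35) and *Nkd2* (-1.24) were lower. The barrier genes had 7 of 12 called lower with a median of -1.01: *Sox17* (-1.70), a transcription factor of arterial and barrier ECs, ran from 46.5 to 145 CPM at 0 hr and from 11.0 to 82.6 at 6 hr, and *Abcb1a* (-1.63), the efflux pump P-glycoprotein, from 200.1 to 382 and from 39.5 to 310. *Tnfrsf19* (-1.42) was the third largest. Without replicate 6, 5 receptors, 2 genes inside the cell, 5 inhibitors and 8 barrier genes were lower and 1 inhibitor was higher.

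At 24 hr 5 barrier genes were lower in brain, with *Mfsd2a* (-1.79), *Abcb1a* (-1.73) and the transcription factor *Foxq1* (-1.49) ahead, and *Mfsd2a* ran from 19.4 to 44.6 CPM against 93.3 to 146 at 0 hr, with no overlap. Among inhibitors, *Notum* (-2.88), *Sfrp1* (-1.76) and *Nkd2* (-1.31) were lower, 3 of 20 in all, and among ligands *Wnt3* (1.25) was higher and *Rspo3* (-1.74) lower. At 48 hr *Mfsd2a* (-1.61) and *Foxq1* (-1.04) were still called, *Ctnnb1*, which encodes β-catenin, was lower (-0.77), and *Ccnd1*, the cell cycle gene cyclin D1, was higher (1.27). At 72 hr *Ccnd1* (2.10) and the tight junction gene *Cldn5* (1.07) were higher and *Mfsd2a* (-1.16) was lower.

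In heart ECs, *Lrp5*, *Adgra2*, *Nkd1*, *Tcf7* and *Reck* fell at 6 hr, with 5 of 8 members called lower and none higher, where 22.4% of all 16024 genes were called higher and 20.3% lower (42.8%). *Lrp5* was at 12.5, 13.2, 9.00 and 21.3 CPM in replicates 1 to 4 and at 210.2 in the library labelled 6 hr, replicate 5, against 101 to 199 at 0 hr. The first 4 lay far below all controls and replicate 5 above them. The change was -1.956 ± 0.51 (adjusted p = 0.00465), and -3.36 ± 0.26 without replicate 5, a 10.2-fold fall (adjusted p = 3.53e-10). *Adgra2* was at 6.35, 9.80, 10.8 and 20.2 CPM, and 103 in replicate 5, against 64.7 to 110, with -1.70 ± 0.45 (adjusted p = 0.00526) or -2.78 ± 0.29 without it (adjusted p = 3.88e-08).

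*Reck* in heart was at 2.87, 6.25, 2.28 and 4.92 CPM, and 29.5 in replicate 5, against 14.6 to 23.2, a change of -1.20 ± 0.46 (adjusted p = 0.0370). *Nkd1* was at 0.884, 0.750, 0.740 and 3.09 CPM, and 8.74 in replicate 5, against 4.99 to 11.8 (-1.54 ± 0.43, adjusted p = 0.00760), and *Tcf7* at 0.442, 0.4502, 0 and 0.328 CPM, and 1.72 in replicate 5, against 0.876 to 2.70 (-1.53 ± 0.52, adjusted p = 0.0216). Without replicate 5, where 57.9% of all genes were called, these 3 fell by 2.24, 2.35 and 2.43 on the log2 scale, *Apcdd1* (-2.24, adjusted p = 0.00592) and *Axin2* (-1.43, adjusted p = 0.0105) were called as well. *Fzd4*, the most abundant member in heart, was at 444, 438, 505 and 535 CPM, and 698 in replicate 5, against 356 to 585, and its change of 0.23 ± 0.20 was not called (adjusted p = 0.349). *Lef1* held 1 count over the 5 heart libraries at 6 hr, against 7 over 5 at 0 hr, too few to test.

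Pan-endothelial genes also fell in heart at 6 hr, with 13 of 20 lower and 1 higher (median -0.99). Scaled on them, which moved the median of all genes from -0.05 to 0.80 and the share called to 58.4%, *Lrp5* (-1.42), *Adgra2* (-1.11) and *Nkd1* (-0.95) were called lower, *Fzd4* (1.09) higher and *Tcf7* and *Reck* no longer (adjusted p = 0.0982 and 0.116). At 24 hr *Axin2*, at 0.966, 0.206, 0.321 and 0.417 CPM, was below every control (-1.92 ± 0.56, adjusted p = 0.0263), where 9.07% of all genes were called higher and 7.11% lower (16.2%), and without the libraries that stand apart *Reck*, at 9.55, 5.51, 9.74 and 6.37 CPM, was called too (-1.01, adjusted p = 0.0355; 25.6%). At 24 hr *Fzd4*, at 734.8, 752.3, 977.8 and 794.2 CPM, lay above every control and *Adgra2*, at 48.0, 40.1, 55.3 and 64.2, below every control, and neither passed the test (0.51 ± 0.22 and -0.97 ± 0.50, adjusted p = 0.0983 and 0.168). At 168 hr *Adgra2* (111.2 to 144.6 CPM) and *Reck* (25.2 to 39.4) lay above every control, with changes of 0.12 ± 0.52 and 0.61 ± 0.53 in the fit with library series (adjusted p = 0.997 and 0.985). From 48 hr on 0 members were called (edgeR; 1 at unadjusted p under 0.05 at 48 hr and 0 later, and 0 by DESeq2 and by limma-voom), beside 4.19% (3.08% higher and 1.11% lower), 0.275% and 0% of all genes. In the other lists at 6 hr, *Wnt4* (1.68) and *Fzd5* (1.23) were higher and *Wnt2* (-1.29), *Tspan12* (-2.29) and *Fzd1* (-1.005) lower. Of the barrier list *Slc2a1* rose (1.74) and *Abcb1a* fell (-1.31), and so did *Plvap* (-1.50), a gene of fenestrated ECs and not of the barrier.

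Lung at 6 hr rested on thin libraries. The 4 libraries held 2678119, 2745503, 40128330 and 284457 counts on genes. In the shallowest, 3 counts equal 86.7 CPM. This follows from its TMM-scaled size, which lies far below its counts on genes, so its CPM values are raised by the scaling too. *Nkd1* was at 50.8, 0, 127 and 0 CPM against 328 to 567 at 0 hr, *Lrp5* at 21.5, 64.0, 68.7 and 0 against 109 to 333, and *Axin2* at 13.1, 0, 3.14 and 0 against 14.2 to 41.6. The 0 CPM of *Axin2* in the shallowest library says little, as its level of 3 counts lies above every *Axin2* control. These 3 genes were called lower: the log2 change was -3.06 ± 0.79 for *Nkd1* (adjusted p = 0.0231), -2.40 ± 0.61 for *Lrp5* (adjusted p = 0.0205) and -2.79 ± 0.81 for *Axin2* (adjusted p = 0.0414), where 2.56% of all 17058 genes were called higher and 2.27% lower (4.83%) and the median of all was -0.42.

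Without the shallowest lung library *Lrp5* (-2.16, adjusted p = 0.0361) and *Adgra2* (-3.37, adjusted p = 0.0280) were called, beside 3.95% of all genes, and *Nkd1* and *Axin2* were not (adjusted p = 0.0523 and 0.0617). *Adgra2* was at 0, 0, 8.01 and 144.5 CPM, the last of these from 5 counts. Markers of other cells ran wide at 6 hr, with sums of 0 to 6734 CPM for myeloid cells against 283.8 to 581 at 0 hr, and their part was not tested. Scaled on pan-endothelial genes, of which 6 of 20 fell (median -1.36), 0 members were called, beside 28.5% of all genes, whose median moved to 1.415. Leaving out single libraries also ended calls: 1 member was called over the 5 times without 0 hr replicate 2, 0 without 0 hr replicate 3 and 1 without 6 hr replicate 1, against 3 with all. At 24, 48, 72 and 168 hr 0 members were called in lung by edgeR (1, 3, 1 and 0 at unadjusted p under 0.05, 0, 1, 1 and 0 by DESeq2, 0 by limma-voom), beside 0.375%, 0.598%, 0.193% and 0.0117% of all genes. Split by direction, 0.363%, 0.428%, 0.17% and 0% of all genes were higher and 0.0117%, 0.17%, 0.0234% and 0.0117% lower at these times, and the 24 hr group held 2 libraries.

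Whether a member's response differed between tissues was tested in 1 fit of all 80 libraries. By the deposited names, the brain and heart libraries at 0 and 6 hr come from the same mice, and this fit had no term for the mouse. None of the 9 members was called at any of the 5 times, 0 of 45 tests for each pair of tissues, beside 13.3%, 0.636% and 18.1% of all genes at 6 hr for brain against lung, brain against heart and lung against heart. At 24, 48, 72 and 168 hr these shares were 3.85%, 3.54%, 0.377% and 0.0273%, then 0.327%, 0.463%, 0.318% and 0%, and then 1.67%, 1.13%, 0.154% and 0.0182%. At unadjusted p under 0.05 there were 2 for brain against lung, 1 for brain against heart and 2 for lung against heart, DESeq2 called 1, 0 and 1, and limma-voom called 0. In simulated counts the test for brain against heart at 6 hr recovered 8 of 100 2-fold and 69 of 100 4-fold changes. The 0 calls thus do not show equal responses. In brain against heart at 6 hr, the difference in response was 0.79 ± 0.60 for *Lrp5* (adjusted p = 0.655). Without the libraries that stand apart it was 1.86 ± 0.49 and was called (adjusted p = 0.0105; 6.27% of all genes), with changes of *Lrp5* of -1.46 in brain and -3.36 in heart when each tissue was fitted alone. In that fit *Reck* differed between brain and lung (-2.07 ± 0.69, adjusted p = 0.0343; 13.6%) and between lung and heart (2.26 ± 0.69, adjusted p = 0.0153; 19.6%). Both rest on 3 lung libraries at 6 hr, with *Reck* at 23.3, 0 and 5.22 CPM (39, 0 and 166 counts) against 11.3, 4.08, 11.7 and 10.2 at 0 hr, so 1 library lies above the controls and 1 at 0.

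After LPS the members called higher in brain at baseline were tested again at each time. In the fit of all libraries, *Lef1*, *Tcf7*, *Axin2*, *Apcdd1*, *Nkd1*, *Adgra2* and *Reck* were called higher in brain than in the mean of lung and heart at 6, 24, 48 and 72 hr, and all of these but *Adgra2* (0.90 ± 0.42, adjusted p = 0.0853) at 168 hr. Of all 22007 genes 56.4%, 39.5%, 48.2%, 45.8% and 38.1% were called at the 5 times. Split by direction, 39.3%, 28.4%, 32.7%, 33.3% and 26.5% were higher in brain and 17.1%, 11.1%, 15.5%, 12.4% and 11.5% lower. *Lef1* held 1, 8, 6, 1 and 4 counts over the heart libraries at 6, 24, 48, 72 and 168 hr and was at 0 in 3 of 4 lung libraries at 6 hr, so no size is given for it, while its brain levels were at least 30.8 CPM in every library. *Apcdd1* was higher by 5.16, 5.90, 5.44, 6.94 and 6.33 on the log2 scale, and *Tcf7* by 3.93, 4.55, 3.69, 4.80 and 3.38. *Fzd4* and *Lrp5* were called lower at all 5 times, with differences of -1.11 to -2.01 and -1.44 to -1.78, but under pan-endothelial scaling, where the median of all genes was 2.02, 2.06 and 2.00 at 6, 24 and 168 hr, *Fzd4* was at 0.51 and 0.37 at 6 and 168 hr (adjusted p = 0.172 and 0.355) and *Lrp5* at 0.22, 0.0052 and 0.43 at 6, 24 and 168 hr (adjusted p = 0.851, 1 and 0.254). These values lie above 0 and below the median of all genes. Without the libraries that stand apart, 6 members were higher at 6 hr, beside 55% of all genes, and *Reck* was not (0.69 ± 0.41, adjusted p = 0.148).

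The genes most like each member were found by Pearson's r of log2 CPM over the 18 tissue and time means, which share libraries and tissues, so r is given as a description. *Lef1* was most like *Kbtbd11* and *Epb41l1* (both 0.976), *Tcf7* like *Ocln*, the tight junction gene occludin (0.969), and *Wfdc1* (0.950), *Axin2* like *Plxdc2* (0.9535) and *Wfdc1* (0.952), and *Apcdd1* like *Zfp385a* (0.981) and *Mal* (0.974). *Nkd1* was most like *Pdlim2* (0.9815) and *Ptpru* (0.959), *Adgra2* like *Wls*, which carries Wnts to the cell surface (0.961), and *Nfic* (0.959), and *Reck* like *Rcn3* (0.975) and *Tmem86a* (0.971). The receptors had *Mlxip* (0.957) and *Tm9sf2* (0.945) beside *Fzd4*, and *Dock6* (0.9665) and *Tspan9* (0.961) beside *Lrp5*. Over the time means of brain alone, r of these pairs ran from 0.017 (*Lef1* with *Epb41l1*) to 0.995 (*Reck* with *Rcn3*). A high r over all means therefore need not be a shared course in brain.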

How the data were processed

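Per the submitters' processing notes, reads were aligned with STAR 2.4.2 to mm10 and counted with HTSeq 0.6.1, and the authors deposited raw counts per gene and sequencing run. The annotation release and the strand setting are not given in the sources used here. Rows that name no gene (such as reads in no feature) were used for the share of reads on genes and for nothing else. In the libraries kept, genes held 53.4% to 70.0% of reads in brain, 3.40% to 61.0% in lung and 43.7% to 68.9% in heart, and those rows held the rest. The 217 runs were summed to 98 libraries, and 18 with under 3% of reads on genes, all from 1 library series, were left out.

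Brain, lung and heart at 0 hr were compared, each time after LPS was compared with 0 hr per tissue, and responses were compared between tissues in 1 fit. The test was edgeR 4.0.16 (R 4.3.3) quasi-likelihood F on counts, two-sided, with TMM scaling, filterByExpr, library series (read from patterns in the deposited names) as covariate and Benjamini-Hochberg adjustment over all genes tested, called at 0.05. SE is the log2 fold change divided by the root of F, and 95% intervals are 1.96 SE to each side. CPM used TMM sizes over the 80 libraries, and log2 CPM a prior count of 2. DESeq2 1.42.0 and limma-voom 3.58.1 were alternatives. Positions and exon lengths are from GENCODE on GRCm38. The tests across genes were also run on simulated counts with a dispersion of 0.1 for every gene. Of 100 genes changed 2-fold, 59 were recovered for brain at 0 hr, and 33 in brain, 17 in lung and 38 in heart at 6 hr. For the brain against heart response at 6 hr 8 were recovered. Of 100 genes changed 4-fold the counts were 100, 98, 77, 99 and 69, and 1.5% to 6.1% of calls were false.

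The members, the gene lists and the libraries set apart were chosen with earlier results of these data known. Members are named throughout, and of each other list at most 3 genes called with the largest change are named (from a mean log2 CPM of 1 upward), and for each member the 2 genes with the highest r (from a mean of 3 upward). Of 57 same-numbered pairs within a tissue, each with a 0 hr library, 12 had a correlation of deviations over 0.1 (r -0.543 to 0.662). Of 13 pairs between tissues at 0 hr 1 did. By the mouse number read from the deposited names, 0 of the 57 and 5 of the 13 pairs share a mouse, so they say little about pairing by mouse. Of the 452 other same-numbered pairs 52 share a mouse, and 128 had a correlation over 0.1 (r -0.33 to 0.65). A block for the mouse was fitted at 0 hr only.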

Additional observations from a re-analysis of the deposited data

Results flagged for a closer look

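Each member was checked in each group of 4 to 10 libraries for a library whose gap to the nearest other, as a share of the group's range, passed Dixon's 95% value. Of 153 sets 15 passed. Chance gives about 1 in 20, but not where all other libraries of a group tie at 0 counts, since any count then passes. Such ties held for *Lef1* in lung at 6 hr and in heart at 6 and 72 hr, and for *Tcf7* in lung at 6 hr. The 15 are thus not read against that rate.

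In brain at 6 hr, replicate 6 stood above the other 4 for *Lef1* (log2 CPM 6.677), *Tcf7* (6.068) and *Axin2* (5.32). It is the library with *Cxcl1* and *Selp* near the 0 hr level. Heart replicate 5 at 6 hr, another of those libraries, stood above the rest for *Lrp5* (7.716).

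In lung, replicate 3 at 6 hr, the deepest of its group, was apart for *Lef1* (2.086) and *Tcf7* (1.624), as the other 3 held 0 counts of both genes. *Tcf7* was far higher in replicate 4 at 0 hr (5.754) than in the other 3 and lower in replicate 1 at 48 hr (0.396) than in the other 5. *Lef1* was lowest in replicate 3 at 72 hr (-3.354), with 0 counts, and *Reck* in replicate 2 at 0 hr (2.064).

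In heart, *Lef1*, which had few counts everywhere, was apart in replicate 3 at 6 hr (-2.649) and replicate 2 at 72 hr (-2.921), the only library of its group with a count. *Axin2* was low in replicate 1 at 0 hr (0.954), and replicate 1 at 168 hr was low for *Fzd4* (8.241) and *Lrp5* (6.892).

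The libraries left out for few reads on genes still held counts of the members: 408 summed over the 6 brain libraries, with *Lef1* the highest at 151, 321 over the 6 lung libraries (*Adgra2* 113) and 317 over the 6 heart libraries (*Adgra2* 206).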

How the results depend on the processing

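Of 93 member values past the threshold, 2164 comparisons with an alternative kept direction and side in 2001, lost the call in 154 and reversed in 9, all 9 under scaling on pan-endothelial genes. Those were *Fzd4* in brain against the mean of lung and heart at 0 hr (0.3342), 6 hr (0.5135) and 168 hr (0.3723), *Lrp5* in the same comparison at 6 hr (0.2193), 24 hr (0.005162) and 168 hr (0.4335), *Nkd1* (0.09769) and *Fzd4* (0.9303) in brain against lung, and *Lrp5* (0.07748) in brain against heart. The cause was not tested.

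Members called lower after LPS in brain, summed over 5 times, were 9, and 1 without the series covariate, 5 under pan-endothelial scaling and 14 without the libraries that stand apart (chosen after seeing the data, and 6 to 14 leaving out each replicate). The share of all genes called moved with the setting too. At 6 hr it was 6.44% in brain, and 2.42%, 20.3% and 14.3% in these settings. In lung it was 4.83%, and 5.84%, 28.5% and 3.95%, and in heart 42.8%, and 39.1%, 58.4% and 57.9%. No share was computed for sums over 5 times, so changes in these counts are not read as changes in the members. Members called higher in brain were 0, and 2 with no low-count filter and 1 each with DESeq2, with all libraries kept, under pan-endothelial scaling and without the libraries apart (0 to 1). Lower in lung were 3, and 6 with DESeq2, 1 with all libraries kept and 0 under pan-endothelial scaling (0 to 4). Lower in heart were 6 (4 to 11, with 11 without 6 hr replicate 5), and higher in heart 0, with 1 without the covariate and 2 under pan-endothelial scaling. Differences in response, 0 in each pair, were for brain against lung 1 each with DESeq2, pan-endothelial scaling and without the libraries apart (0 to 2), for brain against heart 1 without the libraries apart (0 to 1), and for lung against heart 1 each with no filter, DESeq2 and without the libraries apart and 2 under pan-endothelial scaling (0 to 3). Higher in brain than in the mean of the others after LPS were 34 (29 to 33 leaving out replicates). At 0 hr the totals called stayed within 1.5 times (leaving out replicates included), but not the split: lower calls went from 3 in brain against lung and 2 in brain against heart and against the mean to 0 under pan-endothelial scaling, and in lung against heart from 2 to 4 with no filter, the replicate block or the mouse block and to 1 with RLE size factors, without the covariate or with all libraries kept. With the mouse block 8 members were called in lung against heart (6 without) and 9 in brain against heart (8 without). The share of all genes called with that block is not given here.

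With replicate number as a replicate block, 8 calls in brain, 2 in lung and 6 in heart were lower, and the labels do not say whether the numbers pair the samples. In lung, leaving out libraries under 1000000 counts took the lower calls from 3 to 2.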
